A study of Arabidopsis thaliana with 6 samples.

Results

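The genes described here encode the proteins that mark the 3′ end of an intron for the spliceosome in Arabidopsis thaliana. They are the 5 loci U2AF35A (AT1G27650), U2AF35B (AT5G42820), U2AF65A (AT4G36690), U2AF65B (AT1G60900) and SF1 (AT5G51300), picked by locus name out of 33602 genes in the deposited gene table, with their exon bins, intron bins and junctions. SF1 binds the branch point, the large U2AF subunit (U2AF65) binds the pyrimidine-rich stretch downstream of it, and the small subunit (U2AF35) reads the AG at the intron end, after which the U2 snRNP takes the place of SF1. In Arabidopsis each U2AF subunit is encoded by a pair of paralogs, and mutants in several of these genes flower at altered times. PRMT5 is a methyltransferase that places symmetric dimethyl marks on arginines, including those of Sm proteins in the spliceosome, and plants without it splice many introns poorly.

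The groups were prmt5 mutant plants (3 libraries) and wild type plants (3 libraries), both of the Col-0 accession. Whole plants, labelled as a pool of tissues, were taken at 15 days after growth on agarose medium in continuous white light at 22 °C. Both groups had been stratified for 4 days at 4 °C, and polyadenylated RNA was sequenced. The mutant allele is not given in the labels. Nothing in the labels says whether libraries of a group came from separate sets of plants, so p-values measure the spread between these libraries, which may be technical. Total gene counts per library lay between 29145068 and 59480457.

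PRMT5 itself had 1915, 2438 and 1840 reads in the mutant libraries, against 1385, 1670 and 865 in wild type, so the library labels cannot be checked by a lower level of the targeted gene. Exonic reads lay less towards the 3′ end in most mutant libraries. The median log2 ratio of read density near the 3′ end over that near the 5′ end was 0.70, 0.77 and 1.27 in mutant replicates 1, 2 and 3, against 1.67, 1.21 and 1.28 in wild type replicates 1, 2 and 3. Among organ markers, the leaf genes RBCS1A and LHCB1.3 were at 13570 to 14030 and 5139 to 6937 CPM (gene counts scaled to library size) in the mutant, against 17460 to 19080 and 14230 to 16200 CPM in wild type. The root genes PYK10 and EXP7 were detected in all 6 libraries, and the floral genes AP1, AP3, AG and SEP3 stayed under 1 CPM. At this low level AP1 had 2, 0 and 0 reads in the mutant, against 16, 20 and 18 in wild type. It was called lower by the gene-level test described below (edgeR, log2 -4.42, adjusted p = 0.0031). AP3 was lower and SEP3 higher in the mutant without overlap, neither of them called, and AG overlapped.

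At the level of whole genes, no change was called. None of the 5 passed the gene-level test, a quasi-likelihood F-test in edgeR over all genes at an adjusted p under 0.05, whereas 34.5% of the 21949 genes tested did. Fitted log2 changes of the members, mutant over wild type, ran between -0.19 for U2AF35B and 0.27 for U2AF65A, with a median of 0.18, against a median of -0.02 over all genes. An unadjusted p under 0.05 was reached by 1 of them, U2AF65A, and DESeq2 called that 1 gene. In whole plants, fewer cells of a type and less RNA per cell cannot be told apart.

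SF1, the branch point protein, was at 74.6, 77.4 and 63.4 CPM in the mutant libraries, against 67.7, 61.0 and 61.8 CPM in wild type. The third mutant library lay within the wild type range, and the log2 change came to 0.18 ± 0.10 (SE; edgeR adjusted p = 0.206). U2AF65A, the more abundant large subunit gene, was at 177, 169.6 and 159 CPM in the mutant libraries, against 141, 142.5 and 136 CPM in wild type. All 3 mutant libraries were above all 3 wild type libraries, as was the case, in either direction, for 48.4% of genes tested. The log2 change of U2AF65A was 0.27 ± 0.10 (SE; edgeR adjusted p = 0.0511; DESeq2 adjusted p = 0.0199). U2AF65B was at 97.8, 99.6 and 95.3 CPM in the mutant, against 98.7, 94.3 and 90.0 CPM in wild type, with overlapping groups and a log2 change of 0.05 ± 0.09 (edgeR adjusted p = 0.714).

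U2AF35A, one of the small subunit genes, was at 56.3, 53.5 and 53.2 CPM in the mutant libraries, against 52.6, 44.3 and 44.1 CPM in wild type. The groups did not overlap, although the first wild type library came close to the mutant, and the log2 change was 0.21 ± 0.10 (edgeR adjusted p = 0.122; 0.0214 without wild type replicate 1). Its paralog U2AF35B was at 45.9, 41.7 and 43.9 CPM in the mutant, against 56.8, 44.8 and 48.4 CPM in wild type. U2AF35B was thus lower on average in the mutant, with overlapping groups and a fitted log2 difference of -0.19 ± 0.10 (SE; edgeR adjusted p = 0.179). Both small subunit genes overlap a neighbour on the other strand (AT1G27640 at the 5′ end of U2AF35A, IPK1 at the 3′ end of U2AF35B), and the sources used here do not say whether counting was strand-specific.

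Per kilobase of effective gene length, U2AF65A came first, at 72.1 ± 3.83 CPM per kb in the mutant and 59.8 ± 1.44 in wild type (SD, n = 3 each). U2AF65B followed at 46.8 ± 1.04 in the mutant and 45.2 ± 2.09 CPM per kb in wild type, and U2AF35A at 38.7 ± 1.21 in the mutant and 33.5 ± 3.47 in wild type. U2AF35B, at 25.9 ± 1.24 in the mutant and 29.5 ± 3.63 in wild type, and SF1, at 24.3 ± 2.51 in the mutant and 21.5 ± 1.24 CPM per kb in wild type, were lowest. The order of the means was the same in both genotypes. Neighbours in that order overlapped between U2AF35A and U2AF35B in wild type and between U2AF35B and SF1 in the mutant.

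**Figure D1:**
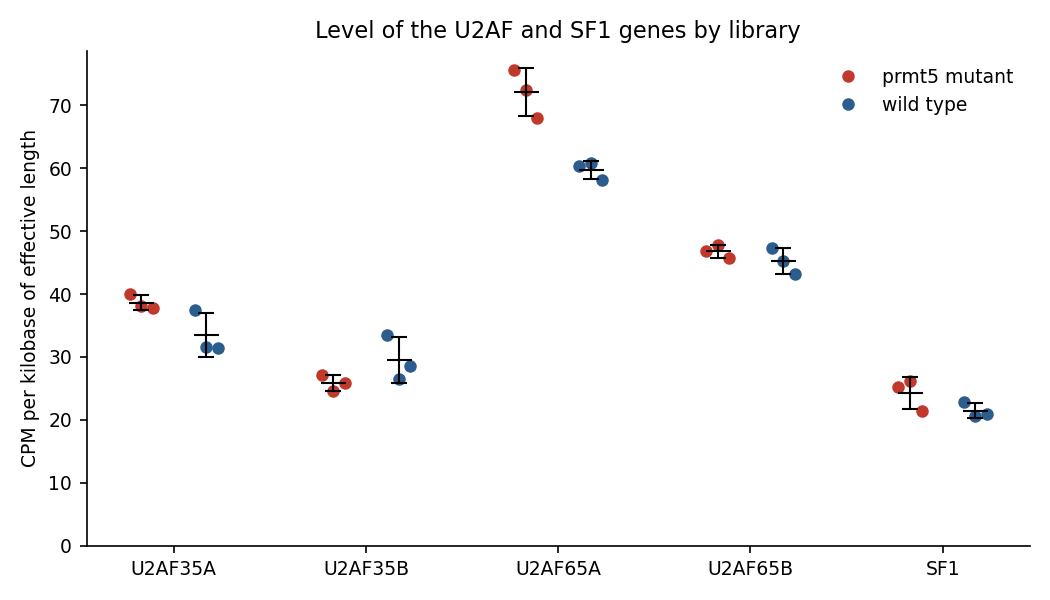
Level of each gene by library in CPM per kilobase of effective length (y axis, linear from 0), with prmt5 mutant libraries left and wild type libraries right for each gene; points are libraries, and bars show the mean and SD of 3. U2AF65A stands highest, at 72.1 in the mutant and 59.8 in wild type, and its groups do not overlap, whereas those of U2AF65B and SF1 do.

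The ratio within each paralog pair did not overlap between the genotypes. How often ratios of other gene pairs do so was not measured, and CPM of single genes did not overlap for 48.4% of genes tested. The log2 ratio of U2AF35A over U2AF35B was 0.29, 0.36 and 0.28 in the mutant, against -0.11, -0.02 and -0.13 in wild type. U2AF35A thus had more reads than U2AF35B in each mutant library and fewer in each wild type library, a mean difference of 0.40 (two-sided exact permutation p = 0.1, adjusted over the 2 ratios 0.1, the smallest p that 3 against 3 libraries allow). The difference was 0.34 when both were counted only in the coding bin that no neighbour overlaps. In those bins, of 1162 and 893 bases, U2AF35A had more reads in all 6 libraries. Wild type counts there were 1986, 2440 and 1188 for U2AF35A, against 1889, 2173 and 1149 for U2AF35B. Read counts are not scaled to length (effective length 1405 bases for U2AF35A and 1693 for U2AF35B). The sign of this ratio therefore does not rank the paralogs. The log2 ratio of U2AF65A over U2AF65B was 0.86, 0.77 and 0.74 in the mutant, against 0.51, 0.60 and 0.60 in wild type, so that U2AF65A was the larger in all 6 libraries and by more in the mutant (difference 0.22, exact permutation p = 0.1, adjusted 0.1). The sources used here do not say how reads shared by similar paralogs were assigned.

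Introns of these genes held the called changes. Of 28 intron bins and annotated retained introns in the 5 genes, 16 had enough reads to test (at least 10 reads in at least 3 libraries), each relative to its gene's count. A further 4 introns of these genes overlap other bins and did not enter the test. There were 4 called higher in the mutant and 0 called lower, where 26.7% of all 34408 introns tested were called higher and 1.21% lower. The median log2 change of the 16 was 0.37, and that of all introns tested was 0.46. The share of member introns called was therefore close to the background. The largest change was that of the intron in the 5′ UTR of U2AF35A: 2.51% of all 34408 introns tested had a larger log2 change.

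The 4 called introns lay in 4 different genes: in the 5′ UTR of U2AF35A, in the 5′ UTR of U2AF35B, between exons of U2AF65B (its intron 7), and in the 3′ UTR of SF1. U2AF65A had none called, and its tested intron with the smallest p was an annotated retained intron. The 5′ splice sites of these 5 introns are printed because those of the U2AF35 genes scored lowest among the tested introns. Each window holds the last 3 exonic and first 6 intronic bases on the gene's strand, and capitals mark the last exonic base and the fifth intronic base.

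U2AF35A 5′ UTR intron, donor: tcTgtacGc
U2AF35B 5′ UTR intron, donor: tcGgtatTc
U2AF65B intron 7, donor: caGgtttGt
SF1 3′ UTR intron, donor: gaGgtaaGa
U2AF65A retained intron, donor: ttGgtaaGa

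The other end of each intron is the stretch that U2AF and SF1 proteins themselves read. The windows below hold the last 20 intronic bases, with the AG in capitals, and the first 3 exonic bases; all of these sequences come from the TAIR10.1 reference.

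U2AF35A 5′ UTR intron, acceptor: gactgatttcttaaactcAGggt
U2AF35B 5′ UTR intron, acceptor: ttgatttttgttatgtttAGgtg
U2AF65B intron 7, acceptor: aatgggttttcatgtcctAGtcg
SF1 3′ UTR intron, acceptor: acattgttaatttttttcAGgtg
U2AF65A retained intron, acceptor: ttggttgtgctgttttacAGcct

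The U2AF35A intron (chr1:9614735-9615136, plus strand, 402 bases, TAIR10 coordinates) ends 15 bases before the start codon. It held 88, 116 and 77 reads in the mutant libraries, against 9, 12 and 6 reads in wild type. Every mutant library was far above every wild type library. Relative to the gene that was 4.57, 5.23 and 4.23 intron reads per 100 gene reads in the mutant and 0.44, 0.48 and 0.49 in wild type, which is 3.31 ± 0.31 higher on the log2 scale (SE; edgeR adjusted p = 1.59e-09). Reads spliced across the intron numbered 97, 109 and 86 in the mutant and 104, 111 and 74 in wild type, with overlapping groups. Intron reads per spliced read thus averaged 0.956 ± 0.0943 in the mutant and 0.0919 ± 0.0143 in wild type (SD, n = 3 each).

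Part of this intron, 172 of its 402 bases, lies inside AT1G27640 on the other strand, and 230 bases lie outside. Reads counted for AT1G27640 numbered 177, 194 and 148 in the mutant, against 126, 142 and 90 in wild type (log2 0.67 ± 0.19, edgeR adjusted p = 0.019). An exon bin of U2AF35A just before the intron, of 153 bases, lies wholly inside AT1G27640. That bin held 146, 151 and 122 reads in the mutant, against 122, 138 and 88 in wild type, close to the AT1G27640 counts there. Whether the same reads were counted for both genes was not tested, so this change cannot be assigned to AT1G27640 itself. Without the strand, reads of the neighbour and of unspliced U2AF35A cannot be told apart in the shared stretch. The donor of the U2AF35A intron scored 1.51 on the sum of log2 base frequency ratios, the lowest of the 28 member introns. Of the 33065 tested introns with GT and AG ends, 2.42% scored lower. Its last exonic base is T, as in 9.06% of those introns, while 77.4% of them have G there. Its acceptor window has T at 38.9% of the 18 bases before the AG, against a median of 50.0% over those introns. The other called introns, of U2AF35B, SF1 and U2AF65B, have 72.2%, 61.1% and 44.4%. Some tested introns of U2AF65B that were not called have less T than the U2AF35A intron, down to 27.8%.

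The U2AF35B intron (chr5:17171303-17171579, minus strand, 277 bases) ends 6 bases before the start codon of the paralog. It held 54, 34 and 35 reads in the mutant libraries, against 14, 44 and 22 in wild type. Per 100 gene reads this was 3.44, 1.96 and 2.33 in the mutant and 0.63, 1.73 and 1.62 in wild type, and the groups did not overlap, as in 40.5% of introns tested. The log2 change was 0.97 ± 0.35 (edgeR adjusted p = 0.0386). The first wild type library was the lowest, and without it the log2 change was 0.61 (adjusted p = 0.194); without mutant replicate 1 or 3 the adjusted p was 0.252 or 0.0715. With coverage along genes as a covariate the log2 change was 0.35 (adjusted p = 0.723), and relative to spliced reads it was 0.82 (adjusted p = 0.139), where intron reads per spliced read overlapped between the groups. Its donor scored 4.05, the next lowest of the 16 tested, and has T rather than G at the fifth intronic base. Both small subunit genes carry an intron just upstream of the start codon with a low-scoring donor, and both introns were called higher in the mutant. The U2AF35B call was also lost with DESeq2 (adjusted p = 0.0742). In edgeR it was lost with a replicate block (adjusted p = 0.0549) and relative to library size (adjusted p = 0.0819). The other called introns, in U2AF65B and SF1, had donor scores of 8.86 and 9.81. A link between donor score and change was not tested.

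**Figure D2:**
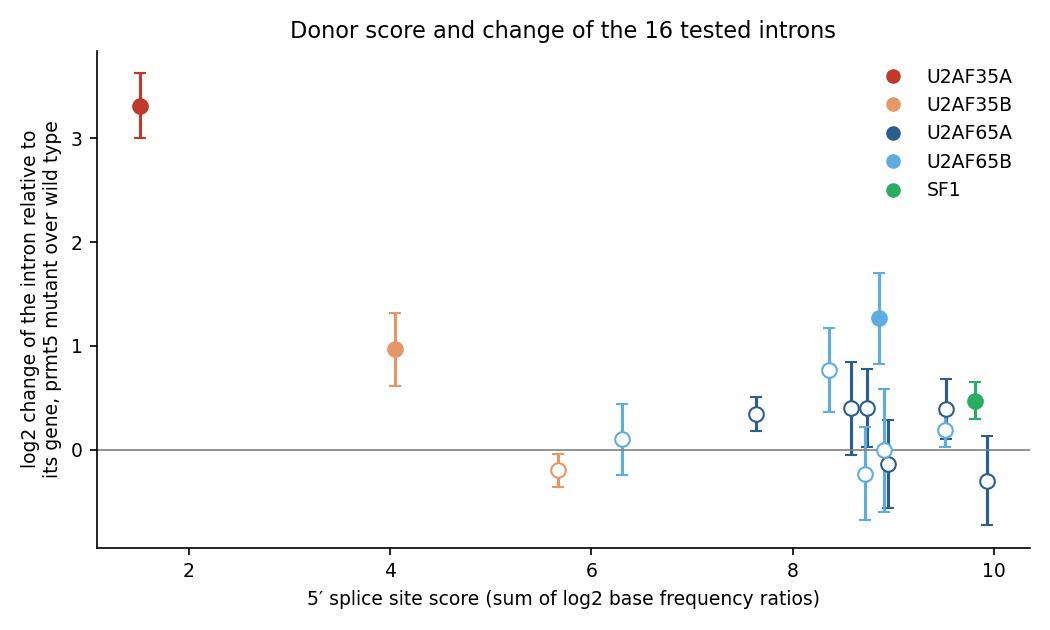
Log2 change of each of the 16 tested introns relative to its gene, prmt5 mutant over wild type (y axis, bars are SE), against the score of its 5′ splice site (x axis); colours are genes, filled points were called at an adjusted p under 0.05 and open points were not. The U2AF35A 5′ UTR intron stands alone at a score of 1.51 and a change of 3.31, the U2AF35B 5′ UTR intron follows at 4.05, and the called introns of U2AF65B and SF1 have scores of 8.86 and 9.81.

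In U2AF65B, intron 7 (chr1:22426285-22426398, plus strand, 114 bases) held 28, 30 and 13 reads in the mutant libraries, against 11, 15 and 6 in wild type. Spliced reads were 232, 259 and 159 in the mutant and 167, 329 and 135 in wild type, more than the intron reads in all 6 libraries. Per 100 gene reads the intron had 0.84, 0.73 and 0.40 in the mutant and 0.29, 0.28 and 0.24 in wild type, without overlap. The log2 change was 1.27 ± 0.44 (edgeR adjusted p = 0.029). It was 0.68 with the coverage covariate (adjusted p = 0.587) and 1.05 relative to spliced reads (adjusted p = 0.0882). The call was lost without mutant replicate 1 or 2 or wild type replicate 2 or 3 (adjusted p between 0.0620 and 0.149). It was also lost with DESeq2 (adjusted p = 0.0597). It held with a replicate block, relative to library size and with a minimum of 5 reads. The donor of this intron scored 8.86, above the median of 6.80 for tested introns.

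The SF1 intron lies in the 3′ UTR, 36 bases after the stop codon (chr5:20849264-20849844, minus strand, 581 bases). It held 217, 353 and 310 reads in the mutant libraries, against 209, 292 and 137 in wild type. Reads spliced across it were 134, 157 and 189 in the mutant, against 306, 293 and 166 in wild type, with overlapping groups. Intron reads per spliced read averaged 1.84 ± 0.36 in the mutant and 0.835 ± 0.157 in wild type (SD, n = 3 each), and the groups did not overlap. Relative to the gene count the log2 change was 0.47 ± 0.18 (edgeR adjusted p = 0.0484), and 0.27 without mutant replicate 3 (adjusted p = 0.340). The call was also lost without mutant replicate 2 or any wild type library (adjusted p between 0.0622 and 0.127). It was lost as well with DESeq2 (adjusted p = 0.068), a replicate block (edgeR adjusted p = 0.0729) and a minimum of 5 reads (edgeR adjusted p = 0.0608). It held with the coverage covariate (edgeR adjusted p = 0.0139) and relative to library size (edgeR adjusted p = 0.0176). Relative to the spliced reads of the same intron the log2 change was 1.13 (edgeR adjusted p = 0.000767). Its donor scored 9.81. An annotated exon bin lies inside the intron, so its reads are not those of a retained intron alone.

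U2AF65A has an annotated retained intron near its 3′ end (chr4:17294604-17294703, minus strand, 100 bases), which held 249, 307 and 234 reads in the mutant libraries, against 181, 296 and 118 in wild type. Per 100 gene reads this was 4.11, 4.36 and 4.29 in the mutant and 3.29, 3.66 and 3.09 in wild type, without overlap. The change did not pass the test relative to the gene (log2 0.34 ± 0.17, edgeR adjusted p = 0.133) and passed it relative to spliced reads (log2 0.69, adjusted p = 0.016). The other 5 tested introns of U2AF65A had log2 changes between -0.30 and 0.40, with adjusted p-values of 0.345 or higher.

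**Figure D3:**
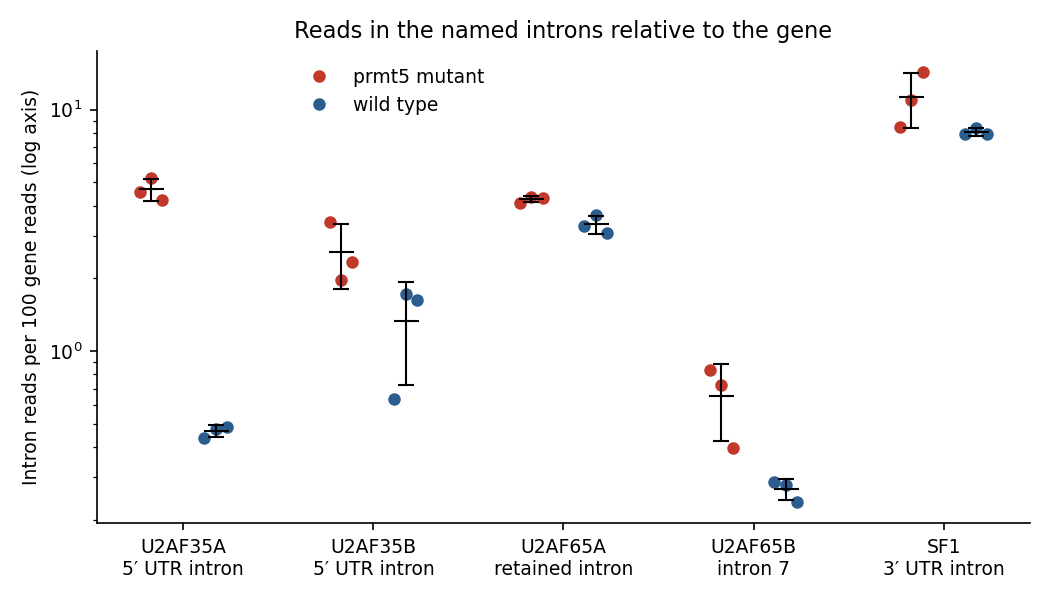
Intron reads per 100 gene reads in each library (y axis, log scale) for the 5 named introns, prmt5 mutant left and wild type right; points are libraries, and bars show the mean and SD of 3. The U2AF35A intron has 4.23 to 5.23 in the mutant and 0.44 to 0.49 in wild type, a far wider gap than at the other introns.

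Few junctions of these genes had enough reads for a test of splice site choice. Of 65 junctions seen in the 5 genes, 29 matched annotated introns, 7 could be tested within their clusters, and 0 were called by edgeR (smallest adjusted p 0.642; 0 gave an unadjusted p under 0.05), where 5.08% of all 5020 junctions tested were called, 2.73% higher and 2.35% lower. Shares of splice sites were therefore compared over libraries for 6 events, where the exact test cannot go below p = 0.1 and adjustment over the 6 takes that to 0.15. Among the 7 tested junctions, whose shares within a cluster depend on each other, the groups did not overlap in 4, and over all genes this held for 29.0% of tested junction shares.

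Both large subunit genes have junctions to unannotated exons inside one long intron of their coding region. In U2AF65A the intron has 433 bases and its inner exon 58 (chr4:17296388-17296445, minus strand). In U2AF65B the intron has 630 bases and holds a pair of inner exons (chr1:22425366-22425403, 38 bases, and chr1:22425574-22425674, 101 bases, plus strand). They are printed because their inclusion would shift the annotated reading frame. With the U2AF65A exon, the first in-frame stop is a TAG that starts at base 6 of a downstream exon. With both U2AF65B exons it is the TAA in capitals at the start of the second.

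U2AF65A inner exon: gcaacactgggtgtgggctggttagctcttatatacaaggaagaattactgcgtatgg
U2AF65B first inner exon: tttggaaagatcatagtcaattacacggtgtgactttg
U2AF65B second inner exon: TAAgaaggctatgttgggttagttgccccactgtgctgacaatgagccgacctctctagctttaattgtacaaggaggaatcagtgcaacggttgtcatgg

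The U2AF65A exon and the second U2AF65B exon resemble each other, with 43 identical positions in a local alignment of 69 (62.3%), and both are followed by a donor that begins with gtat. The U2AF65A donor joined to the inner exon in 15, 22 and 18 reads in the mutant, against 8, 14 and 5 reads in wild type. Of the reads that join this donor to the inner exon or to the annotated acceptor, this was 3.73%, 4.22% and 6.0% in the mutant, against 2.96%, 2.59% and 1.93% in wild type. The mutant shares at this end of the exon were all higher, with means of 4.65% ± 1.20 in the mutant and 2.49% ± 0.52 in wild type (SD, n = 3 each; exact permutation p = 0.1). In the junction test its log2 change was 0.81 (edgeR adjusted p = 0.642). The junction at the other end of the same exon had 24, 17 and 16 reads in the mutant, against 7, 24 and 5 in wild type. Its share of the cluster was 5.63%, 3.15% and 5.06% in the mutant, against 2.53%, 4.25% and 1.89% in wild type, so that the groups overlapped (log2 0.54 ± 0.45, edgeR adjusted p = 0.967).

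In U2AF65B the shares of the inner exons were larger in both genotypes. The donor joined to the first inner exon in 16.3%, 14.1% and 29.0% of its reads in the mutant, against 8.57%, 13.0% and 10.3% in wild type, from only 3 to 9 joining reads per library. Junctions into the downstream acceptor started at the second inner exon in 39, 65 and 41 reads in the mutant, against 31, 54 and 32 in wild type. That was 54.2%, 54.6% and 61.2% of the reads into that acceptor in the mutant, against 47.7%, 45.0% and 51.6% in wild type (means 56.7% ± 3.93 in the mutant and 48.1% ± 3.33 in wild type, SD, n = 3 each; exact permutation p = 0.1). The junctions between both inner exons had 14, 23 and 19 reads in the mutant, against 15, 43 and 10 in wild type, and their ranges overlap. The 630-base intron itself held 386, 503 and 379 reads in the mutant, against 315, 681 and 255 in wild type. Only 31, 47 and 20 mutant and 30, 57 and 26 wild type reads were spliced across it. It was not called (log2 0.18 ± 0.16, edgeR adjusted p = 0.447). Whether junctions at both ends come from the same transcripts was not tested. Inner exon use was thus higher in every mutant library by some of these junctions and not by others.

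Other splice site choices in these genes were measured in the same way. The intron of U2AF65A that can be retained also has a second acceptor further downstream, which took 42.6% ± 4.18 of its junction reads in the mutant and 42.4% ± 3.57 in wild type (SD, n = 3 each; exact permutation p = 0.9), with a junction log2 change of 0.01 ± 0.21. The distal acceptor of the SF1 3′ UTR intron took 3.79% ± 1.66 in the mutant and 3.43% ± 1.47 in wild type (exact permutation p = 0.7). A 100-base stretch within a coding exon of U2AF65A (chr4:17295298-17295397) was removed in 37, 38 and 34 reads in the mutant, against 44, 79 and 29 in wild type. Per 100 reads of that exon this was 2.02 ± 0.08 in the mutant and 2.78 ± 0.28 in wild type, lower in all 3 mutant libraries (SD, n = 3 each; exact permutation p = 0.1). Its donor reads aaGgtgaGg, with the same capitals as above.

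**Figure D4:**
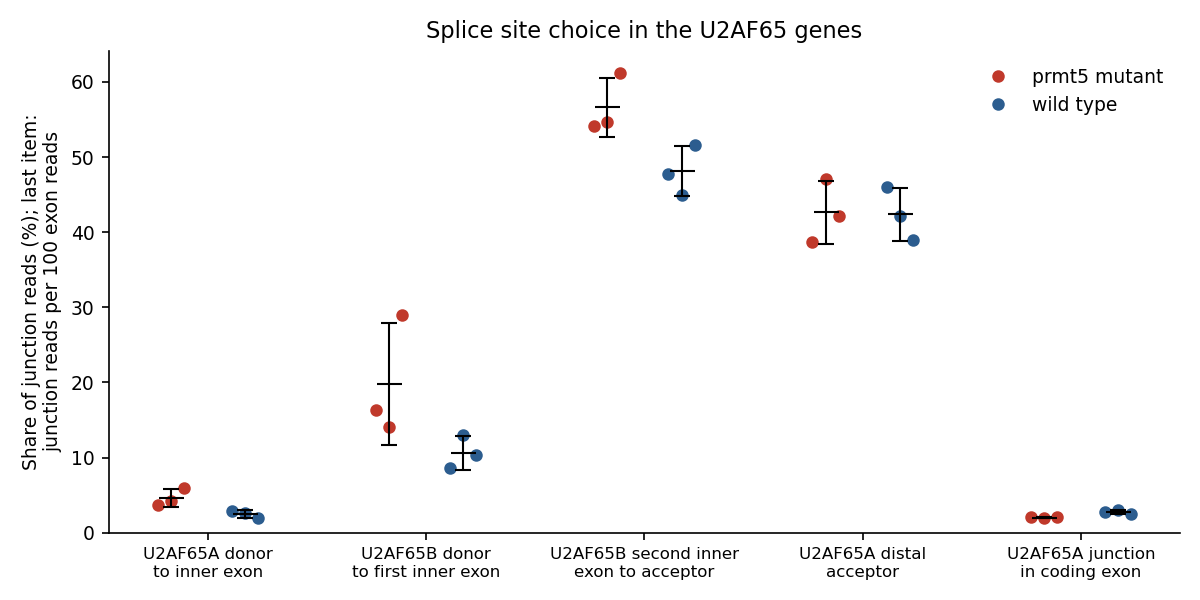
Use of alternative splice sites in the U2AF65 genes, by library (y axis, percent of junction reads at the shared splice site, or for the last item junction reads per 100 reads of the exon), prmt5 mutant left and wild type right; points are libraries, and bars show the mean and SD of 3. The 3 inner exon measures plotted are higher in the mutant, at 56.7% against 48.1% for the second U2AF65B inner exon, while the distal acceptor of U2AF65A is at 42.6% in the mutant and 42.4% in wild type.

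No exon bin of the 5 genes was called. Of 48 exon bins, 42 were tested relative to their gene and 0 were called by edgeR, where 0.114% of all 121498 exon bins were, 0.0823% higher and 0.0313% lower. Of the 42, 2 had an unadjusted p under 0.05, and DESeq2 called 0. The bin with the smallest p was a 5′ terminal bin of U2AF65A, at 8.24 ± 1.17 reads per 100 gene reads in the mutant and 6.33 ± 1.03 in wild type (SD, n = 3 each; log2 0.38, edgeR adjusted p = 0.249). Next came the alternative stretch downstream of the SF1 3′ UTR intron, at 17.7 ± 5.11 in the mutant and 23.6 ± 3.56 reads per 100 gene reads in wild type (log2 -0.42, edgeR adjusted p = 0.278; -0.66 and 0.0282 without mutant replicate 3). In the other 3 genes the bins with the smallest p had log2 changes of 0.45 (5′ terminal bin of U2AF65B), 0.25 (the bin just after the 5′ UTR intron of U2AF35A) and -0.29 (3′ terminal bin of U2AF35B), with adjusted p-values of 0.303 or higher. With coverage along genes as a covariate, the changes of the 5′ terminal bins were -0.0041 in U2AF65A and -0.037 in U2AF65B, and that of the SF1 bin was 0.086.

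The proteins that SF1 and U2AF hand the branch point over to are those of the U2 snRNP. A list of 22 U2 snRNP and branch point partner genes had 20 tested members, of which 6 rose (30.0%) and 2 fell (10%) in the mutant, where 18.6% of all genes tested were higher and 15.9% lower. Their median log2 change was 0.17. The rises were in AT1G10320, a U2AF35-related gene whose human counterpart acts at 3′ splice sites of the minor spliceosome, in the SF3b subunit gene SF3B2, in the SF3a subunit genes SF3A3 and SF3A1 (copy AT1G14640), and more weakly in SF3B1, which clasps the branch point, and in the PRP5-like helicase gene AT1G20920.

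AT1G10320 was at 51.5, 51.8 and 47.8 CPM in the mutant libraries, against 23.9, 22.3 and 21.0 CPM in wild type (log2 1.17 ± 0.09, edgeR adjusted p = 5.13e-06). SF3B2 (AT4G21660) was at 240.3, 220.1 and 211 CPM in the mutant, against 107.5, 95.9 and 89.7 CPM in wild type (log2 1.20 ± 0.11, adjusted p = 1.51e-05). In both genes every mutant library was well above every wild type library. SF3A3 (AT5G06160) averaged 41.2 ± 0.55 CPM in the mutant and 27.8 ± 1.62 CPM in wild type (SD, n = 3 each; log2 0.57, edgeR adjusted p = 0.000641). The weakly expressed SF3A1 copy AT1G14640 averaged 7.81 ± 1.21 CPM in the mutant and 3.65 ± 0.48 CPM in wild type (log2 1.10, edgeR adjusted p = 0.000791), while the other copy, AT1G14650, was not called. SF3B1 (AT5G64270; log2 0.31, adjusted p = 0.0436) and AT1G20920 (log2 0.36, adjusted p = 0.0202) lay outside the naming rule and are given after a look at their values. Both calls were lost without mutant replicate 1 or 2 or wild type replicate 2 or 3 (adjusted p between 0.0514 and 0.153) and with the coverage covariate (adjusted p = 0.551 for SF3B1 and 0.344 for AT1G20920).

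The genes called lower were U2B″ (AT2G30260), a protein of the U2 snRNA stem loop, and the PHF5A copy AT1G07170, an SF3b subunit gene. U2B″ averaged 27.1 ± 2.21 CPM in the mutant and 34.0 ± 4.32 CPM in wild type (SD, n = 3 each; log2 -0.33, edgeR adjusted p = 0.0405). AT1G07170 averaged 11.5 ± 1.26 CPM in the mutant and 14.6 ± 0.51 CPM in wild type (log2 -0.34, edgeR adjusted p = 0.0449). The U2B″ call was lost without mutant replicate 2 or 3 or wild type replicate 1 or 3, and that of AT1G07170 without any 1 library other than mutant replicate 1 (adjusted p between 0.0627 and 0.169 over both genes). With the coverage covariate the adjusted p was 0.275 for U2B″ and 0.284 for AT1G07170.

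**Figure D5:**
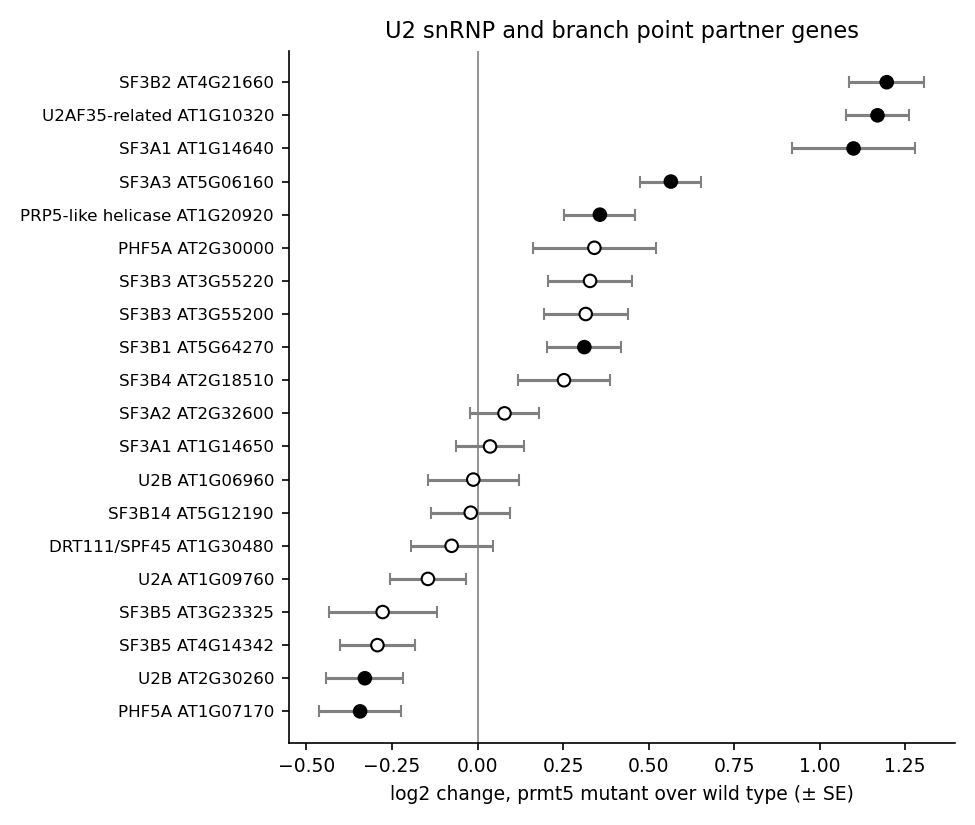
Log2 change of expression, prmt5 mutant over wild type (x axis, bars are SE), of the 20 tested U2 snRNP and branch point partner genes (rows, with locus); filled points were called at an adjusted p under 0.05 and open points were not. SF3B2, AT1G10320 and the SF3A1 copy AT1G14640 stand furthest right, at 1.20, 1.17 and 1.10, and U2B″ and PHF5A AT1G07170 furthest left.

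The genes whose levels moved most like those of each member were found over all 6 libraries among 13418 genes, by the root mean square difference of mean-centred log2(CPM + 1). The nearest to SF1 was AT5G56030, the chaperone gene HSP81-2 (difference 0.0192), and the nearest to U2AF65A was AT4G19490, the vesicle tethering gene VPS54 (0.0256). AT5G08380, an alpha-galactosidase gene, was nearest to U2AF65B (0.0176). For the small subunit genes these were AT3G56430, annotated as an import inner membrane translocase subunit, for U2AF35A (0.020) and AT5G02960, a small ribosomal subunit gene, for U2AF35B (0.0184). The nearest gene was a different one for each of the 5, and no paralog was nearest to its partner.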

How the data were processed

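RNA was sequenced from 3 prmt5 mutant and 3 wild type libraries, each prepared with a TruSeq RNA kit, 3 µg of RNA and 12 cycles of PCR, per the labels. The deposited tables hold raw whole-number counts per gene, exon bin, intron bin and junction, per the file headers; no normalization was applied by the authors. STAR and TAIR10 are named in the submitters' processing notes, with no version or role; the counting program and its strand setting are not stated in the labels or headers. Coordinates, from 1, were checked against TAIR10.1, where 32834 of 32835 genes matched by locus tag overlapped.

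Genes were tested with the robust quasi-likelihood method (F-test) of edgeR 4.0.16, run in R 4.3.3 with TMM factors and the default filter, with Benjamini-Hochberg adjustment over the whole table. Intron and exon bins used the same test with the logarithm of the gene count plus 1 as offset, for bins that reached 10 reads in 3 or more libraries, in genes with a mean count of at least 20. Junctions sharing an end were clustered and tested with diffSpliceDGE. CPM are after TMM scaling, and log2 changes are mutant over wild type with SE derived from the F value. Donor scores sum log2 ratios of base frequencies, over 134218 annotated introns that begin with GT, to 0.25. The nearest pattern was sought among genes with a mean of at least 10 CPM.

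The members, lists, tests and rules were chosen with earlier results of these data known. Named were all 5 members, every called feature of theirs or else the tested one with the smallest p, and up to 4 called partner genes in each direction by smallest p. Alternatives were leaving out each library, a replicate block, a coverage covariate, DESeq2 1.42.0, other offsets and other filters. On simulated counts with real means, the tests recovered 92.5% of genes, 16.4% of introns, 58.2% of exon bins (in 2000 genes) and 13.4% of junctions changed by 1 on the log2 scale, and 100%, 86.4%, 98.5% and 56.1% at 3. The simulation gave every feature the same spread and drew bin and gene counts independently. Real library spread and the coverage difference were therefore not in it. Changes smaller than 1 were not simulated, and 2.07% of unchanged junctions were called. Counting error and library spread limit the precision of gene counts. Further limits are the unknown strand setting, the unknown assignment of reads shared by paralogs and the difference in coverage along genes.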

Additional observations from a re-analysis of the deposited data

How the results depend on the processing

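The log2 change of the U2AF35A 5′ UTR intron stayed called under every alternative run for it, between 3.14 and 3.52. Over 25 single genes, bins and junctions and 287 alternatives, 230 left direction and call as reported, 47 lost the call, 7 gained one and 3 changed sign, all with the coverage covariate: the 5′ terminal bins of U2AF65B (-0.037) and U2AF65A (-0.0041) and the SF1 bin (0.086). The number of members called was 0 to 2 with a library left out (2 without wild type replicate 1, namely U2AF35A and U2AF65A) and 1 with DESeq2. Introns called numbered 2 to 3 with a library left out, 2 with the coverage covariate and 1 with DESeq2. Exon bins called numbered 0 to 2 with a library left out (2 without mutant replicate 3) and 2 relative to library size. Partner genes called higher numbered 4 to 8 with a library left out, and those called lower 0 to 2 with a library left out, 0 with the coverage covariate and 1 without the low-count filter. The cause of these shifts was not tested. Replicates with the same number did not deviate together (correlations of -0.11, -0.05 and -0.02). Deviations from a mean of 3 libraries tie these correlations to each other, so they cannot decide whether the numbers pair the libraries. With a replicate block 2 member introns were called. Over whole tables the coverage covariate left 4170 genes, 5560 introns, 55 exon bins and 127 junctions called. Exon bin calls were the least stable, with 138 as reported, 11240 without mutant replicate 3, 1412 with DESeq2 and 29540 relative to library size. Few reads limit the junction tests: of 65 junctions, 7 reached the minimum.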
